A study of Homo sapiens with 6 samples.

Results

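Nonsense-mediated decay is the pathway by which cells destroy mRNAs whose translation ends too early. The 9 genes described here, UPF1, UPF2, UPF3A, UPF3B, SMG1, SMG5, SMG6, SMG8 and SMG9, encode its UPF and SMG factors. They were taken by symbol from the authors' deposited table of 26364 genes, and all 9 symbols were found. REH is an established human cell line from a B-precursor acute lymphoblastic leukaemia, grown as a culture with no genetic change named in the labels. One group of 3 libraries came from cells exposed for 6 h to S3I-201, a compound directed against STAT3, at 50 µM. The other group of 3 libraries came from cells kept for 6 h with DMSO, its solvent. The design places the libraries in independent experiments.

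The authors' deposited table gives each gene, over the 6 libraries together, the mean of its normalized counts, its log2 fold change and the test of that change, and no value per library was used here. Which group is the denominator is not stated there. Positive values are read below as higher with S3I-201, and under the opposite reading every direction would turn. The fold changes in the authors' deposited table appear to be shrunken towards 0, since a gene seen by 1 read reached at most 0.04 in size on the log2 scale. An SE was worked back from each fold change and its p-value through the normal distribution, and all 95% intervals below rest on this implied SE. The steps by which the means of rarely detected genes moved gave about 6560000 counts for 1 library and 10900000 to 14500000 for the others. Genes seen by 1 read in the shallow library had positive fold changes, which places that library with S3I-201 under the reading used here. Of 11 B-precursor markers, 10 had a mean of at least 1041 and VPREB1 was at 0 in the authors' deposited table, while 7 of 13 markers of other cell types were at 0 and the myeloid marker MPO had a mean of 978.

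UPF1 is an RNA helicase that gathers on an mRNA when a ribosome stops in a position read as premature. UPF2 and UPF3B, or its relative UPF3A, link UPF1 to the exon junction complexes that splicing leaves on the mRNA. The kinase SMG1, held in check by SMG8 and SMG9, then phosphorylates UPF1, and phosphorylated UPF1 recruits the endonuclease SMG6 and the adaptor SMG5. Phosphorylation of eIF2, the start of the integrated stress response, is known to slow this decay. In human cells the transcripts of UPF1, UPF2, UPF3B, SMG1, SMG5 and SMG6 are themselves reported to be substrates, so that their levels can rise when decay slows. The comparison asks whether the transcripts of the factors changed when REH cells received the compound.

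None of the 9 factors passed. By DESeq2's adjusted p, as the authors' deposited table has it, 0 of 9 tested factors were called at 0.05, 0 at 0.1, and 0 had an unadjusted value under 0.05. Over all 11912 genes with an adjusted p, 5.90% were called (703 genes), 4.45% as higher (530 genes) and 1.45% as lower (173 genes), and 16.0% had an unadjusted value under 0.05. Log2 fold changes of the factors ran from -0.17 for SMG1 to 0.27 for UPF3B, with 4 positive, 5 negative and 7 of them under 0.1 in size. Their median was -0.00, beside -0.02 over all tested genes, and it became 0.05 with the abundance trend removed, that is, after the median change of genes of like abundance was subtracted. The median size of the change, sign ignored, was 0.06 for the factors and 0.16 over all tested genes. In a bulk culture such as this, a change in the share of cells that make a transcript cannot be told apart from a change per cell.

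All 9 factors were well covered. Mean normalized counts in the authors' deposited table ran from 385 for SMG8 to 3052 for SMG5, so none was lost to the filter on low means. Levels can be set against each other only per length, and the annotation the authors counted on is not given in the sources used here, so exon lengths came from GENCODE release 29. Per kb of the principal transcript, the factor with the most counts was SMG5, at 670 mean normalized counts per kb, followed by UPF1 at 567. UPF3B with 320 and UPF2 with 294 stood in the middle on that scale, and UPF3A had 206. The lower end held SMG6 with 170, SMG9 with 154, SMG1 with 136 and SMG8 with 111 mean normalized counts per kb. When all annotated exons were used as the length, SMG5 at 576 and UPF1 at 353 still led, UPF2 at 278 stood above UPF3B at 247, and the other 5 lay close together between 84.5 and 107. The order below UPF1 therefore depends on the length chosen, and no spread over libraries could be set beside it.

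**Figure D1:**
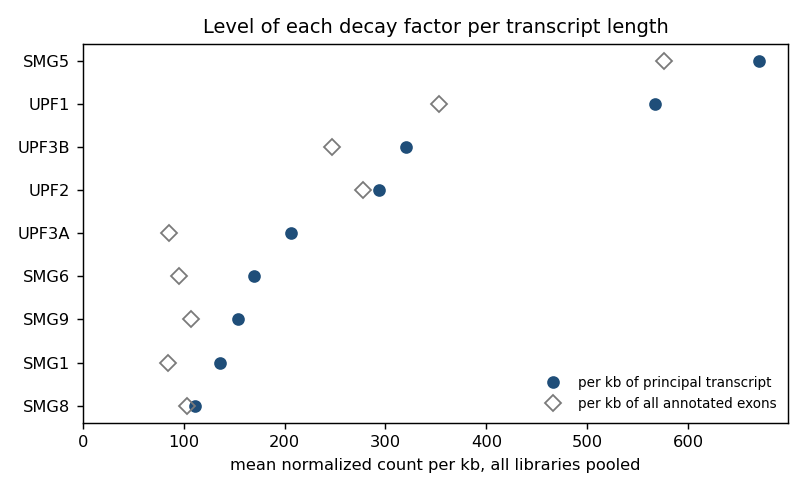
Mean normalized count per kb (x axis, pooled over all 6 libraries) for each factor (y axis), with the principal GENCODE transcript (filled circles) or all annotated exons (open diamonds) as the length. SMG5 and UPF1 lie furthest to the right on both lengths, at 670 and 567 per kb of principal transcript.

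UPF1, the helicase, lies on chromosome 19 from 18831938 to 18868236 (hg38, plus strand, whole gene, GENCODE release 29, as for the others). It had a mean normalized count of 3035 and a log2 change of 0.07 in the authors' deposited table (SE 0.12, 95% interval -0.17 to 0.30, adjusted p = 0.872). Taken at face value, that fold change corresponds to group means of about 3107 normalized counts with S3I-201 and 2963 with DMSO. The interval leaves room for a level with S3I-201 between 0.891 and 1.24 times that with DMSO. Of the 9 factors UPF1 had the smallest implied SE.

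The UPF2 and UPF3 proteins bridge UPF1 and the exon junction complex. UPF2 (chromosome 10, 11920022 to 12043170, minus strand) had a log2 change of -0.05 in the authors' deposited table (SE 0.13, adjusted p = 0.918). UPF3A (chromosome 13, 114281584 to 114305817, plus strand) had -0.08 (log2) in the authors' deposited table (SE 0.14, adjusted p = 0.866). UPF3B, the X-linked relative of UPF3A (119805311 to 119852998, minus strand), had the largest change of the 9, at 0.27 or 1.21-fold in the authors' deposited table (SE 0.17, 95% interval -0.06 to 0.60, adjusted p = 0.472).

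The UPF3B value corresponds to about 834 normalized counts with S3I-201 and 690 with DMSO. Its unadjusted p was 0.105, and 25.7% of all tested genes had a change of greater size in the authors' deposited table. UPF3A and UPF3B had opposite signs and log2 fold changes 0.35 apart. That difference was not tested, since both values come from the same libraries, and each interval includes 0.

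SMG1 is the kinase that phosphorylates UPF1, a member of the family that also holds ATM, ATR and MTOR. The gene lies on chromosome 16 from 18804853 to 18926454 (minus strand). Its log2 fold change was -0.17 in the authors' deposited table, the lowest of the 9, with the widest interval (SE 0.19, 95% interval -0.55 to 0.20, adjusted p = 0.761). It corresponds to about 2066 normalized counts with S3I-201 and 2325 with DMSO. The value is uncertain for a further reason, because SMG1 has near-identical pseudogene copies that can share its reads. Rows for 5 of these copies, SMG1P1, SMG1P2, SMG1P3, SMG1P5 and SMG1P7, looked up after their values were seen, had means of 5.96 to 93.4 in the authors' deposited table, while SMG1 itself had 2195.

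SMG8 and SMG9 bind SMG1 and restrain its kinase activity. SMG8 (chromosome 17, 59209400 to 59215247, plus strand) had a log2 change of 0.06 in the authors' deposited table (SE 0.16, adjusted p = 0.927). SMG9 (chromosome 19, 43727992 to 43754990, minus strand) had a log2 change of 0.06 there as well (SE 0.17, adjusted p = 0.934). Both subunits were thus on the positive side and SMG1 on the negative side, with all 3 intervals including 0. The span of SMG8 overlaps AC099850.2, a coding gene annotated on the same strand.

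SMG5 and SMG6 act after UPF1 is phosphorylated. SMG5 (chromosome 1, 156249224 to 156282825, minus strand) had a mean normalized count of 3052 and a log2 change of -0.03 in the authors' deposited table (SE 0.12, adjusted p = 0.947). SMG6, the endonuclease that cuts the mRNA near the stop codon (chromosome 17, 2059839 to 2303771, minus strand), had a log2 change of -0.00 in the authors' deposited table (SE 0.13, adjusted p = 0.998). It corresponds to about 1012 normalized counts with S3I-201 and 1013 with DMSO, and 99.6% of tested genes had a change of greater size. The span of SMG6 overlaps the coding genes HIC1 and SRR on the other strand, and the library method does not mark strand.

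**Figure D2:**
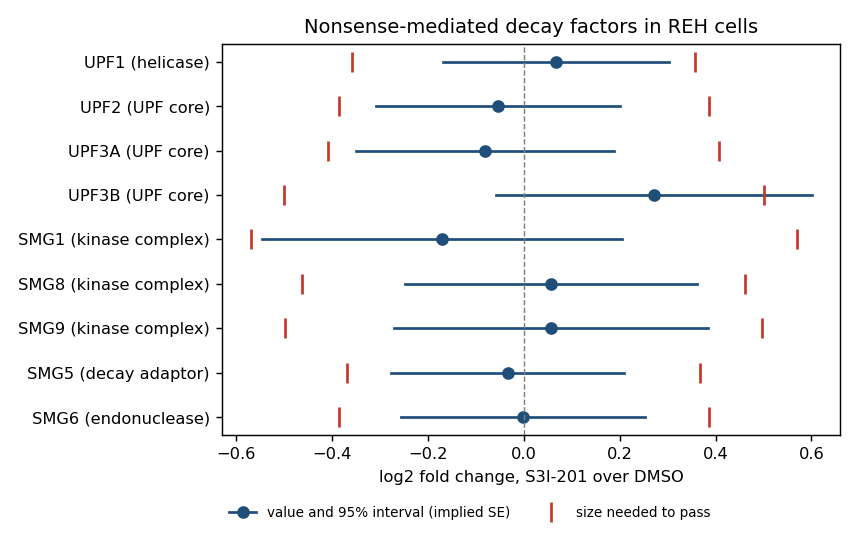
Log2 fold change of each factor, S3I-201 over DMSO (x axis; circles), with its 95% interval from the implied SE (blue lines) and the size that would have passed at an adjusted p of 0.05 (red ticks). All 9 intervals cross 0, and the interval of UPF3B alone reaches past its red tick.

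These intervals set how much change the data can hide. Genes were called up to an unadjusted p of 0.00294 in the authors' deposited table, so that a factor would have passed with a log2 change of 0.36 (UPF1, 1.28-fold) to 0.57 (SMG1, 1.48-fold). The highest upper bound among the 9 was 1.52-fold, for UPF3B, and the lowest lower bound was 0.685-fold, for SMG1. For the other 7 the intervals lay between 0.785-fold and 1.31-fold. Because the fold changes appear shrunken, the intervals can be narrower than those of unshrunken changes. Smaller changes were not detectable with these libraries, and their absence was not shown.

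**Figure D3:**
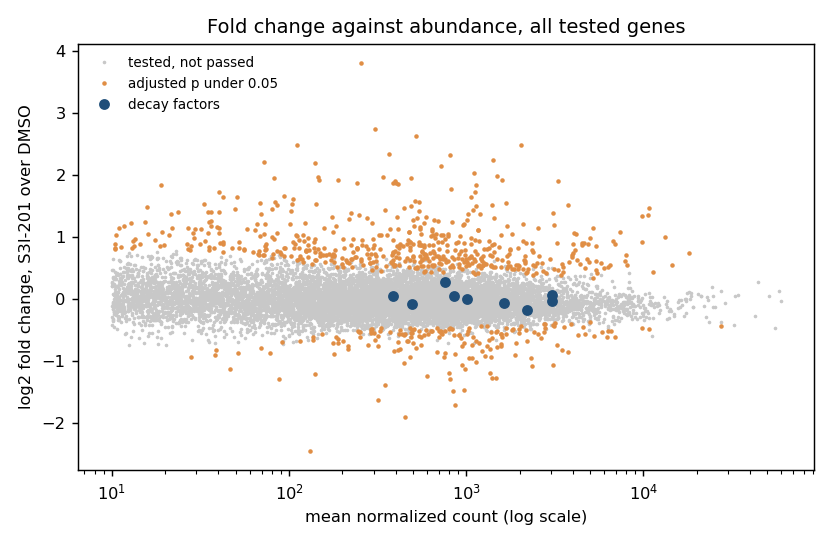
Log2 fold change, S3I-201 over DMSO (y axis), against the mean normalized count (x axis, log scale) for the 11912 genes with an adjusted p. The 9 factors (blue) lie among the grey genes that did not pass, between -0.17 and 0.27, while called genes (orange) lie outside that band.

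Of the 6 factors whose own transcripts are reported substrates, 2 had positive values (UPF1 and UPF3B) and 4 negative ones. By the authors' DESeq2 adjusted p, 0 of the 6 passed, beside 5.90% of all tested genes. An unadjusted value under 0.05 was found for 0 of them, beside 16.0%. With only 6 genes, these counts cannot be set apart from those shares. The median of the 6 on the log2 scale was -0.02, also -0.02 over all tested genes, and it became 0.04 with the abundance trend removed. GENCODE release 29 annotates an isoform of the nonsense-mediated decay type for only 3 of the 9 genes, 1 each for SMG1, SMG8 and SMG9. The deposited values are per gene, so isoforms that decay would remove cannot be told apart from those it spares.

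Calls in the surrounding machinery are read against the 5.90% called over all tested genes. Of 9 further factors of the pathway, 0 passed by the adjusted p of the authors' DESeq2 and 0 had an unadjusted value under 0.05, with a median log2 change of -0.07. The helicase DHX34, which helps UPF1 phosphorylation, came first among these by p, with a log2 change of -0.23 in the authors' deposited table (adjusted p = 0.579). Of 9 tested genes of the exon junction complex, 0 passed by the authors' DESeq2 adjusted p, 0 had an unadjusted value under 0.05, and the median was -0.14. MAGOH, a core subunit, stood at -0.25 (log2) in the authors' deposited table (adjusted p = 0.396).

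GSPT1, which encodes the release factor eRF3a that ends translation and contacts UPF1, was the single called gene of 11 for termination and cap binding. Its log2 fold change was -0.39 in the authors' deposited table (SE 0.12, adjusted p = 0.0320), and removal of the abundance trend ended that call (adjusted p = 0.108). Of 25 enzymes and cofactors of general mRNA decay, DCP1B, a cofactor of decapping, was higher at 0.59 (log2) in the authors' deposited table (SE 0.17, adjusted p = 0.0133). The other 24 did not pass, and the list median was 0.04. These single calls make up 9.09% of the termination and cap-binding list and 4.0% of the decay enzymes, near the 5.90% over all tested genes.

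Kinases related to SMG1 and the chaperones that build them had 0 of 12 called by the authors' DESeq2 adjusted p, with 1 at an unadjusted value under 0.05. This was ATR, the replication stress kinase, at -0.29 (log2) in the authors' deposited table (adjusted p = 0.273). Of 4 tested subunits of PP2A, the phosphatase that acts on UPF1, 0 passed by the adjusted p of the authors' DESeq2 and 0 had an unadjusted value under 0.05. PPP2CB, a catalytic subunit, stood at 0.22 (log2) in the authors' deposited table (adjusted p = 0.475).

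Many of the transcripts listed here as reported substrates of the pathway were higher. Of 16 tested coding transcripts and pseudogenes reported as substrates, 9 were higher, 0 lower and 7 did not pass. That is 56.2% higher, beside 4.45% of all tested genes. The list median was 0.81 on the log2 scale. All gene lists used here were chosen with earlier results of these data known. The shares describe the lists and are no test of substrates as a class. DDIT3, the stress factor CHOP, had a log2 change of 1.86 in the authors' deposited table (SE 0.19, adjusted p = 4.05e-19). GADD45A, which halts growth after stress, stood at 1.96 in the authors' deposited table (SE 0.22, adjusted p = 1.31e-15). CDKN1A, the cell cycle inhibitor p21, had 1.90 (adjusted p = 4.76e-14) and ATF3, a stress-induced repressor, 1.73 (adjusted p = 1.18e-08) on a log2 scale in the authors' deposited table.

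Also called as higher were TNFRSF10B at 1.37, GABARAPL1 at 1.11, IFRD1 at 1.05 and ATF4 at 0.89 (log2) in the authors' deposited table. Several of the called substrates, such as ATF3 and DDIT3, are also known to be induced at transcription under stress. The part of RNA stability in their values was not tested. The 7 that did not pass had 5 positive values and 2 negative ones. They were RP9P at 0.31, GADD45B at 0.27, NAT9 at 0.16, MAP3K14 at 0.10, UVRAG at 0.04, TBL2 at -0.04 and BAG1 at -0.06 (log2) in the authors' deposited table. ERN1, the endoplasmic reticulum stress sensor IRE1, was among the 9 called with a log2 change of 0.74 in the authors' deposited table, and its call ended when every gene with a p-value entered the adjustment (adjusted p = 0.0527).

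Noncoding hosts of small nucleolar RNAs, whose spliced transcripts the pathway removes, formed a second group of substrates. Of 10 tested, 2 were higher (20%, beside 4.45% of all tested genes), 0 lower and 8 did not pass, with 8 positive values and a median of 0.23 on the log2 scale. ZFAS1 stood at 0.56 (SE 0.15, adjusted p = 0.00493) and SNHG1 at 0.43 (SE 0.14, adjusted p = 0.0320) on a log2 scale in the authors' deposited table. Of 22 genes listed for poison exons or other splicing that sends the transcript to decay, 0 passed by the authors' DESeq2 adjusted p. That stood beside 5.90% of all tested genes, and the list median was -0.02. An unadjusted value under 0.05 was found for 3 of the 22, near the 16.0% of all tested genes. The kinase CLK1 had the smallest adjusted p of these, at 0.53 (log2) in the authors' deposited table (adjusted p = 0.0684, and 0.0371 after the trend with abundance was taken out).

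**Figure D4:**
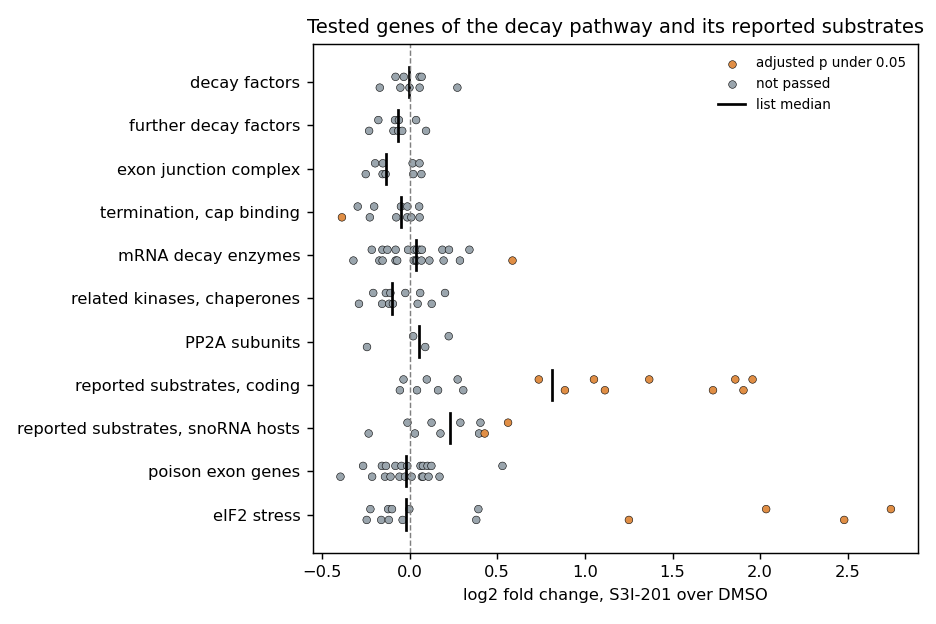
Log2 fold change, S3I-201 over DMSO (x axis), of each tested gene in 11 lists (y axis), with called genes in orange, others in grey and the list median as a black bar. The factors sit around a median of -0.00. At positive values, 9 of 16 reported coding substrates and 4 of 14 eIF2 stress genes are called. The lists were chosen with earlier results of these data known, and ATF4, DDIT3 and ATF3 are counted with the coding substrates.

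Transcripts listed for the eIF2 branch of the stress response were counted in the same libraries, which hold no measure of eIF2 phosphorylation. The 14 tested genes listed for this branch held 4 that rose (28.6%, beside 4.45% of all tested genes) and 10 that missed the threshold. The kinases and eIF2B subunits were not among the 4. ATF4, DDIT3 and ATF3, which belong to the same branch, were counted with the coding substrates and do not enter this 28.6%. ATF4 stood at 0.89 on the log2 scale (authors' DESeq2 adjusted p = 2.54e-07). CHAC1 at 2.75, TRIB3 at 2.48, PPP1R15A, which recruits the eIF2 phosphatase, at 2.03 and ASNS, asparagine synthetase, at 1.25 on the log2 scale were the 4 in the authors' deposited table. Their values stand beside those of the factors without a test of the difference, since all come from one contrast.

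The sequence element through which ATF4 acts on stress genes was searched in promoter windows, because stress genes were called and the factors were not. The windows come from RefSeq (GRCh38.p14), run from 250 bases before a gene's start to 50 bases after it, and held entries for 8 of the 9 factors. The motif TGATGNAA, read on both strands, was in 0 of these 8 factors (0 of 15 windows), beside 4.46% of all 27305 genes with a window. With only 8 genes, 0 cannot be set apart from that share. The motif was in 3 of 14 eIF2 stress genes and in 2 of 13 coding substrates. All 5 matches in these 2 lists are shown, with the motif in capitals, 4 of them in genes that rose.
ASNS, chr7:97872463-97872482, minus strand: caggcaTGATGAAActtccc
CHAC1, chr15:40953256-40953275, minus strand: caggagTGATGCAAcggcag
ATF3, chr1:212565210-212565229, plus strand: tcaggaTGATGGAAggctgt
IFRD1, chr7:112452070-112452089, plus strand: ccatgtTGATGAAAttcatt
PPP1R15B, chr1:204412031-204412050, minus strand: cccggcTGATGCAAcctcac
A match is a description of these letters and no proof of a site, and its absence says only that these letters are not in these windows. PPP1R15B, which encodes another subunit of the eIF2 phosphatase, did not pass (log2 change 0.39 in the authors' deposited table, adjusted p = 0.221), and TRIB3 and PPP1R15A rose with no match in their windows. IFRD1, a reported substrate, had a log2 change of 1.05 in the authors' deposited table (SE 0.20, adjusted p = 1.18e-05).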

How the data were processed

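RNA was turned into libraries with TruSeq RNA v2 chemistry, which does not mark strand, per the labels' protocols. Read processing named hg38 with bcl2fastq 2.19, Trimmomatic, Bowtie2 and Picard, and featureCounts with DESeq2, with no role or order, per the submitters' processing notes. Per the file headers, the authors averaged counts divided by size factors into a mean normalized count per gene, used here as a signal. Per the file headers, the log2 fold change and both the p-value and its adjusted form are the authors' as well. Repeating the Benjamini-Hochberg step on 11912 p-values gave the deposited adjusted p within 0.675%. A further 5062 genes had a p-value and no adjusted p, and 83 with a mean above 0 had no p-value. Positive fold changes were read as S3I-201 over DMSO because the authors' DESeq2 takes the alphabetically first group as its reference by default. The call threshold was an adjusted p of 0.05. The plan foresaw a count test only for counts per library, so the authors' test was used.

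The members and the 14 gene lists were chosen with earlier results of these data known. Named were the 9 factors and, per list, up to 4 called genes by adjusted p, or else the gene with the smallest p. The lists of cell type markers were left out of this rule and described by their means. Named outside this rule, after their values were seen, were VPREB1, MPO, the SMG1 pseudogenes, HIC1, SRR and the 7 coding substrates that did not pass. So were the called substrates ERN1, ATF4, TNFRSF10B and GABARAPL1, and IFRD1 and PPP1R15B for their motif matches. AC099850.2 was named from the annotation. Alternatives were computed with pandas 2.3.3 and scipy 1.17.1 in Python 3.11.15. One of them subtracted the median log2 fold change of each of 20 abundance bins and took p from the implied SE, and this step was tested on simulated data. A gene that the rule also takes is not reported here.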

Additional observations from a re-analysis of the deposited data

How the results depend on the processing

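The count of 0 called factors was the same at thresholds of 0.01 and 0.1, when every gene with a p-value, or those with a mean of at least 100, entered the adjustment, with the abundance trend removed and with a minimum log2 change of 0.5. Adjusted p-values of the 9 factors under the 3 other adjustments ran from 0.372 to 0.999. Removing the abundance trend turned SMG5 from -0.034 to 0.029 and SMG6 from -0.001 to 0.051 on the log2 scale. Both signs turned because the step subtracts the median change of genes of like abundance from values near 0. The source of the trend was not tested. At a threshold of 0.01, 442 genes passed overall and 1 snoRNA host, and 1 snoRNA host also passed with the minimum change. The snoRNA hosts had 3 called at a threshold of 0.1 and with the trend removed. No paired analysis was possible because the values used here are pooled over libraries, which also left out single replicates and a second count test as not run. Depth per library was inferred, not read.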
